A study of Homo sapiens with 6 samples.

Results

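The 10 genes described here encode core parts of the autophagy machinery: the ATG8 family genes GABARAP, GABARAPL1, GABARAPL2 and MAP1LC3B, the cargo receptor SQSTM1, the kinase ULK1, the class III PI3-kinase subunit BECN1, and the conjugation factors ATG5, ATG7 and ATG12. They were chosen by symbol from the 31142 genes of the table, and each symbol matched 1 gene identifier. All 10 were among the 10942 genes with a mean of at least 1 FPKM (fragments counted per transcript length and library size), and each was above 1 FPKM in every library. RNA was sequenced from 6 libraries labelled as SKM-1, a human acute myeloid leukemia cell line that arose from myelodysplastic syndrome (MDS). In 3 of them the cells expressed S34F mutant U2AF1 and in 3 wild-type U2AF1 (WT), with 96 h in the protocol. U2AF1 is a splicing factor that recognises the 3′ splice site, and S34F is a recurrent MDS mutation in it. The FLAG-tagged proteins came from stably transduced lentivirus, so they were overexpressed beside the cells' own wild-type U2AF1. The prefix of the WT titles is also the study's abbreviation for negative controls, and the protocol speaks of a vehicle control, so the labels do not settle whether the WT libraries carried exogenous wild-type U2AF1. The label was kept.

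Autophagy encloses cytoplasm in a double membrane that then fuses with the lysosome. The ULK1 kinase complex starts the process, the BECN1-containing lipid kinase marks the membrane, and a ubiquitin-like system made of ATG7, ATG12 and ATG5 joins ATG8 proteins to a membrane lipid, where they bind cargo receptors such as SQSTM1 (p62). The pathway is known to clear mitochondria in blood cells, and the study asked whether the transcription factor FOXO3a controls autophagic flux in S34F mutant cells. Flux is a protein and membrane turnover, and the values here are transcript levels only.

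Approximate depths lay between 20.5 and 26.1 M fragments. At the lowest depth, 3 fragments of a member corresponded to between 0.0165 and 0.0647 FPKM, far below every value given for the 10 genes. S34F replicate 3 stood apart from the other libraries: its mean correlation with them over all tested genes was 0.961, against 0.975 to 0.978 for the other 5. U2AF1 was at 9.24, 9.48 and 9.18 FPKM in S34F replicates 1 to 3 and at 8.67, 8.70 and 7.65 FPKM in WT replicates 1 to 3, and a gene-level value cannot separate the mutant from the wild-type allele. SKM-1 is known as a monocytic leukemia line, but 8 of 12 listed monocytic markers had a mean under 1 FPKM, with MPO, S100A8, FCN1 and CSF1R under 0.1 FPKM, while 2 of the 12 reached 10 FPKM or more. The summed monocytic markers ranged from 47.3 to 76.8 FPKM in S34F and from 68.4 to 89.9 FPKM in WT. Among 12 listed erythroid markers, the mean reached 10 FPKM or more in 10, and their sum ranged from 11819 to 13653 FPKM in S34F and from 11401 to 12634 FPKM in WT. The marker levels go against the label in this respect, and the part of cell identity in the values below was not tested. In bulk RNA, fewer cells of a type and less RNA per cell cannot be told apart.

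No difference between S34F and WT passed the test in any of the 10 genes. In the limma fit over all 10942 genes, 0 of the 10 had an unadjusted p under 0.05, beside 262 of all genes (2.39%), and the smallest p among them was 0.546. Every adjusted p (Benjamini-Hochberg over all genes) was 1 for these genes, and 0% of all genes tested had an adjusted p under 0.05. In none of the 10 did the 3 S34F values lie wholly above or below the 3 WT values, which was the case for 7.38% of all genes. The exact two-sided permutation test, which cannot go below 0.1 for 3 libraries against 3, gave p from 0.7 to 1 for the 10 genes. Their median log2 fold change was 0.031, beside 0.014 over all genes tested, and 8 of 10 were above 0, beside 54.6% of all genes. In each of the 10 genes the lowest and the highest library had different replicate numbers, as most pairs of libraries do.

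The 4 ATG8 family genes encode small ubiquitin-like proteins that ATG4 proteases cut behind a glycine, through which the protein is then attached to phosphatidylethanolamine. The last 75 coding bases of each gene, stop codon included, are shown because they hold that glycine and because they show how far the members resemble each other where the functional residue is fixed. They run 5′ to 3′ and were read from the GENCODE 29 transcripts, with the glycine codon in capitals.
GABARAP: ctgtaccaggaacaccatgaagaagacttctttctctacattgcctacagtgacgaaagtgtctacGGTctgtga
GABARAPL1: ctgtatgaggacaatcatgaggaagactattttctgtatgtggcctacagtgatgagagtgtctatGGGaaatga
GABARAPL2: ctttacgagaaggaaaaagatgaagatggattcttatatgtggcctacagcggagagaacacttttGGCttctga
MAP1LC3B: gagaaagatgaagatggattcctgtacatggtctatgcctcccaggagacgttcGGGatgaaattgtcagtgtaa
In the first 3, the glycine is residue 116 of 117 and a single codon lies between it and the stop. In MAP1LC3B it is residue 120 of 125, with 5 residues after it. Over the whole coding sequence, GABARAP and GABARAPL1 were the most alike pair, with 76.8% identical bases and 86.3% identical residues. GABARAPL2 shared 57.3% of residues with GABARAP and 60.7% with GABARAPL1, and MAP1LC3B shared between 33.1% and 37.6% with the other 3. MAP1LC3B and its copy MAP1LC3B2 share 99.5% of 378 bases, so fragments of this pair may have been divided uncertainly. GABARAPL1 and GABARAPL3 share 95.5% of 354 bases. GABARAPL3 had no values under that symbol, so how fragments common to it and GABARAPL1 were assigned is not known.

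GABARAP (ENSG00000170296, chr17:7240014-7242770, minus strand, GRCh38), a trafficking protein first found with the GABA-A receptor, was the most abundant of the 10 genes. Its FPKM was 87.0, 88.6 and 119 in S34F replicates 1 to 3 and 86.8, 89.7 and 106 in WT replicates 1 to 3. The groups overlapped, and both libraries numbered 3 were above the other 4. The means were 98.0 ± 17.8 FPKM in S34F and 94.0 ± 10.2 FPKM in WT (SD, n = 3), and the log2 fold change was 0.050 with a 95% interval from -0.31 to 0.41 (limma p = 0.754, exact permutation p = 0.8). On the scale of FPKM + 1, this interval spans folds from 0.805 to 1.33. Exons of AC120057.2, a protein-coding gene on the same strand without a value here, overlap GABARAP. Those of AC120057.3 overlap it on the opposite strand, at a mean of 1.57 FPKM. The part of shared fragments was not tested.

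GABARAPL2 (ENSG00000034713, chr16:75566351-75577881, plus strand), also known as GATE-16, was also highest in the libraries numbered 3, at a lower level. It was at 29, 28 and 39.4 FPKM in S34F replicates 1 to 3 and at 30.4, 28.3 and 37.0 FPKM in WT replicates 1 to 3. S34F and WT overlapped, and replicates 1 and 2 of both groups lay close together. The group means differed least of the 10 genes on the log2 scale, by 0.0014 with a 95% interval from -0.40 to 0.40 (limma p = 0.994, exact permutation p = 1). The direction of a difference this small depended on the scaling, as it was below 0 after quantile normalization or median-ratio scaling.

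MAP1LC3B (ENSG00000140941, chr16:87383995-87404779, plus strand) encodes LC3B, the usual marker of autophagosomes. Its FPKM was 14.7, 24.1 and 33.0 in S34F replicates 1 to 3 and 15.3, 26.5 and 20.9 in WT replicates 1 to 3. Both libraries numbered 1 were the lowest of the 6, and S34F replicate 3 was the highest. The log2 fold change of 0.15 was the largest of the 10, but its 95% interval ran from -0.59 to 0.89 (limma p = 0.646, exact permutation p = 0.8), and it was -0.11 without S34F replicate 3. MAP1LC3B2 was at 1.77, 1.91 and 3.78 FPKM in S34F and at 1.91, 2.01 and 2.74 FPKM in WT, highest in the libraries numbered 3. Exons of FBXO31 overlap MAP1LC3B on the opposite strand, and FBXO31 ranged only from 5.34 to 5.89 FPKM. Whether the counting used strand is not given in the sources used here.

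GABARAPL1 (ENSG00000139112, chr12:10212458-10223130, plus strand) varied most across libraries on the log2 scale. It was at 7.35, 1.76 and 10.9 FPKM in S34F replicates 1 to 3 and at 7.91, 1.57 and 12.6 FPKM in WT replicates 1 to 3. In both groups the library numbered 2 was the lowest and the library numbered 3 the highest, and the values of the same number in S34F and WT lay close together. Both libraries numbered 2 were below 0.5 times every other library, a description made after the values were seen. It also held for BCL2L2, a survival protein of the BCL2 family, and for no other of the 10942 genes. BCL2L2 was at 2.33, 0.784 and 9.02 FPKM in S34F and at 8.16, 0.646 and 2.24 FPKM in WT. The log2 fold change of GABARAPL1 between S34F and WT was -0.061 with a 95% interval from -1.82 to 1.70 (limma p = 0.936, exact permutation p = 0.9), and the replicate block narrowed this interval to -0.33 to 0.21. Without the block, the interval covers folds from 0.282 to 3.25.

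Summed over the 4 genes, ATG8 family transcripts came to 138, 142 and 202 FPKM in S34F replicates 1 to 3 and to 140, 146 and 176 FPKM in WT replicates 1 to 3. Within each number S34F and WT lay close for replicates 1 and 2, and the highest sums were those of the libraries numbered 3. GABARAP made up between 58.7% and 63.0% of the sum and GABARAPL2 between 19.4% and 21.6%, a narrow range for both. The share of MAP1LC3B went from 10.7% to 18.2%. GABARAPL1 took 5.32%, 1.23% and 5.42% in S34F and 5.64%, 1.08% and 7.17% in WT, so its share was lowest in both libraries numbered 2. MAP1LC3A, which encodes LC3A, was listed at 0 in 5 libraries and at 0.065 FPKM in WT replicate 1.

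**Figure D1:**
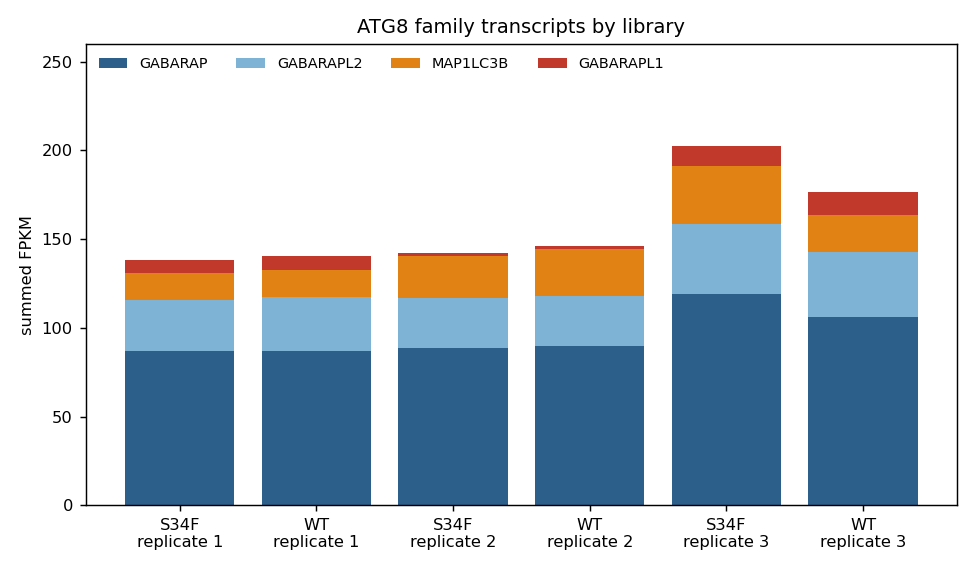
Stacked bars give the summed FPKM of the 4 ATG8 family genes in each library, with S34F and WT libraries of the same replicate number side by side. The sums of the libraries numbered 3 are 202 (S34F) and 176 FPKM (WT), above the 138 to 146 FPKM of the other 4, and the GABARAPL1 segment is nearly absent in both libraries numbered 2.

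SQSTM1 (ENSG00000161011, chr5:179806398-179838078, plus strand) encodes p62, which binds ubiquitinated cargo and ATG8 proteins and is itself degraded by autophagy. Its FPKM was 60.6, 59.0 and 186 in S34F replicates 1 to 3 and 63.5, 63.1 and 123 in WT replicates 1 to 3. Replicates 1 and 2 of both groups lay between 59.0 and 63.5 FPKM, and both libraries numbered 3 were far above them. The value of replicate 3 was 3.12 times the mean of the other 2 in S34F and 1.94 times in WT. SQSTM1 was the 1 member, and 1 of 169 genes (1.54% of those tested), with both libraries numbered 3 above 1.5 times every other library, a description also made after the values were seen. The group means were 102 ± 73.1 FPKM in S34F and 83.2 ± 34.5 FPKM in WT (SD, n = 3). The log2 fold change was 0.14 with a 95% interval from -1.01 to 1.30 (limma p = 0.775, exact permutation p = 1), and it was -0.40 without S34F replicate 3. Exons of MGAT4B and MRNIP overlap SQSTM1 on the opposite strand. MRNIP was also highest in the libraries numbered 3, with 2.08, 2.16 and 4.71 FPKM in S34F and 2.29, 2.67 and 3.76 FPKM in WT, whereas MGAT4B was between 20.1 and 26.0 FPKM without that order, and the part of shared fragments was not tested.

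**Figure D2:**
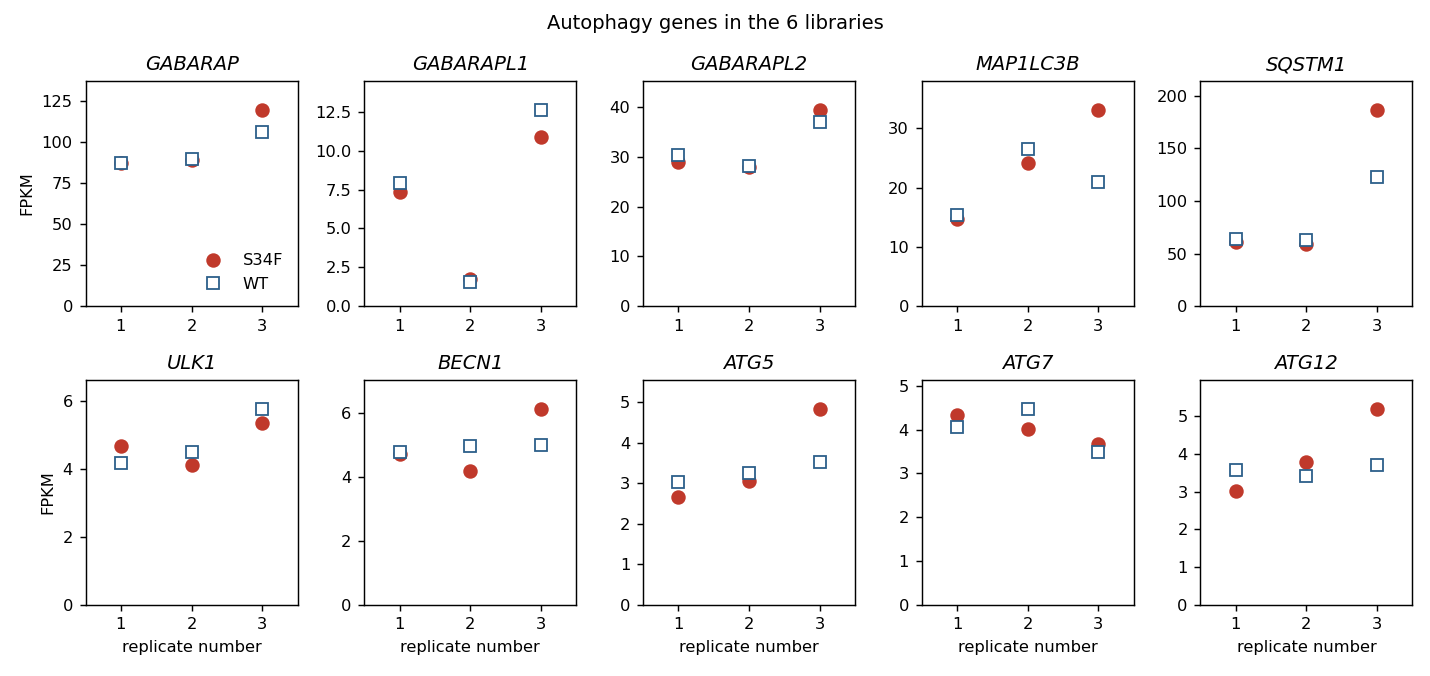
Each panel plots the FPKM of 1 of the 10 genes (linear axis from 0) against replicate number, with filled circles for S34F and open squares for WT libraries. Circles and squares of the same number lie close together for GABARAPL1, from 1.57 to 12.6 FPKM over the numbers, and S34F replicate 3 is the highest point in 7 panels.

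The conjugation factors were expressed at lower levels. ATG7 (ENSG00000197548, chr3:11272309-11557665, plus strand), the E1-like enzyme that activates both ATG12 and ATG8 proteins, was at 4.33, 4.01 and 3.68 FPKM in S34F and at 4.05, 4.47 and 3.48 FPKM in WT replicates 1 to 3. It was the exception among the 10 genes, as the libraries numbered 3 were the lowest of each group. Its log2 fold change was 0.0042 with a 95% interval from -0.28 to 0.29 (limma p = 0.972, exact permutation p = 1), the tightest interval of the 10, corresponding to folds from 0.825 to 1.22. After quantile normalization or median-ratio scaling it was just below 0.

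ATG12 (ENSG00000145782, chr5:115828200-115841858, minus strand), the ubiquitin-like protein that ATG7 activates and that is then joined to ATG5, was at 3.01, 3.78 and 5.19 FPKM in S34F and at 3.58, 3.41 and 3.71 FPKM in WT replicates 1 to 3. The WT libraries spread little around 3.57 ± 0.149 FPKM, while S34F spanned a wider range, from the lowest to the highest value of the 6. Its log2 fold change of 0.11 (95% interval -0.29 to 0.50) had the smallest p of the 10 genes, 0.546 in limma. The 3 tested genes with the profile nearest to that of ATG12 over the 6 libraries were LINC00888, a long non-coding RNA, PRMT9, an arginine methyltransferase, and LCMT1, which methylates the phosphatase PP2A. Their root mean square differences from ATG12, on centred log2(FPKM + 1), were 0.031, 0.032 and 0.034. LINC00888, for example, was at 3.53, 4.08 and 5.87 FPKM in S34F and at 3.89, 3.82 and 4.23 FPKM in WT.

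ATG5 (ENSG00000057663, chr6:106045423-106325791, minus strand), which carries ATG12 and helps attach ATG8 proteins to lipid, was at 2.65, 3.05 and 4.83 FPKM in S34F and at 3.04, 3.24 and 3.52 FPKM in WT replicates 1 to 3. It had the lowest mean of the 10. S34F replicates 1 and 3 were its lowest and highest libraries, as for ATG12, and the groups overlapped. The log2 fold change was 0.051 with a 95% interval from -0.39 to 0.49 (limma p = 0.792, exact permutation p = 0.9).

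Upstream of conjugation, ULK1 and BECN1 were at similar levels. ULK1 (ENSG00000177169, chr12:131894651-131923167, plus strand), the kinase that receives signals from mTOR and AMPK, was at 4.68, 4.12 and 5.36 FPKM in S34F and at 4.17, 4.51 and 5.77 FPKM in WT replicates 1 to 3. Its highest libraries were both numbered 3, and the log2 fold change was -0.021 with a 95% interval from -0.37 to 0.32 (limma p = 0.886, exact permutation p = 0.9). BECN1 (ENSG00000126581, chr17:42810134-42833350, minus strand), the scaffold subunit of the class III PI3-kinase complex, was at 4.73, 4.21 and 6.14 FPKM in S34F and at 4.80, 4.98 and 5.0 FPKM in WT replicates 1 to 3. WT values of BECN1 barely spread, at 4.93 ± 0.11 FPKM, and S34F values lay on both sides of them, at 5.03 ± 1.0 FPKM (SD, n = 3). The log2 fold change of BECN1 was 0.012 with a 95% interval from -0.32 to 0.34 (limma p = 0.934, exact permutation p = 1). Exons of PSME3 overlap BECN1 on the opposite strand, at 30.4 to 46.9 FPKM, those of VGLL4 overlap ATG7, at 2.21 to 3.86 FPKM, and those of AP3S1 overlap ATG12, at 8.0 to 9.71 FPKM.

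**Figure D3:**
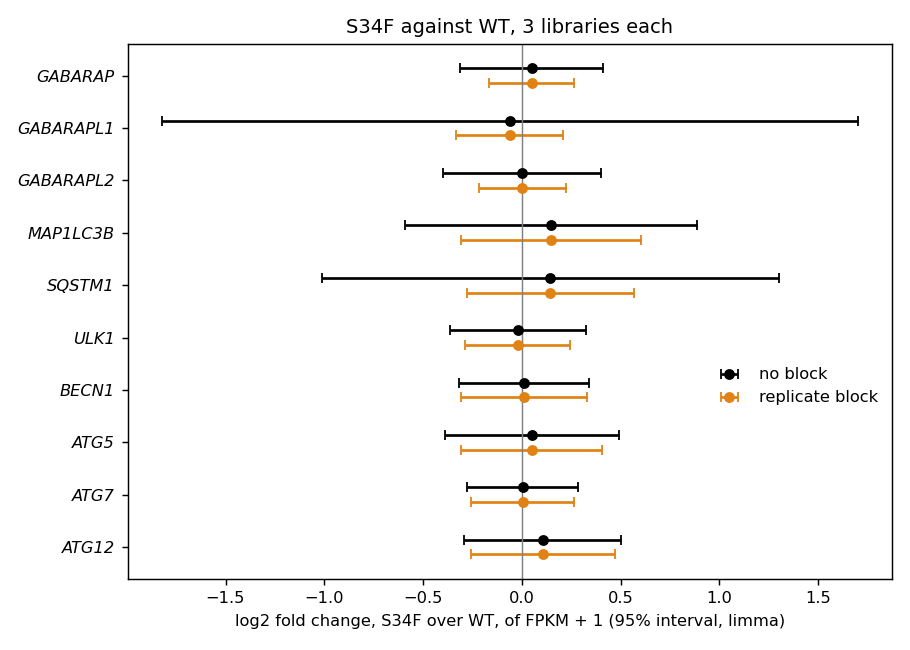
Points give the log2 fold change of FPKM + 1, S34F over WT, for each of the 10 genes, and bars its 95% interval from limma, in black without and in orange with the replicate number as a block. Every interval includes 0, and the block narrows that of GABARAPL1 from -1.82 to 1.70 down to -0.33 to 0.21.

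In order of mean FPKM, a level per length, over the 6 libraries, the genes fell into 3 tiers. GABARAP (96.0 ± 13.1, SD, n = 6) and SQSTM1 (92.6 ± 52.1) were the most abundant and overlapped each other, and GABARAP was the higher in 4 of 6 libraries. GABARAPL2 (32.0 ± 4.92) and MAP1LC3B (22.4 ± 6.98) followed, below every value of the first pair. GABARAPL1 (7.03 ± 4.59), BECN1 (4.98 ± 0.638), ULK1 (4.77 ± 0.663), ATG7 (4.0 ± 0.375), ATG12 (3.78 ± 0.741) and ATG5 (3.39 ± 0.762) lay below every value of MAP1LC3B, and each overlapped the next in this order. Among the 10942 tested genes, the mean of GABARAP was at percentile 96.1, that of SQSTM1 at 95.9 and that of ATG5 at 36.3.

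The libraries were then compared by replicate number. An F test in limma over the replicate number terms, added after the values were seen, gave an unadjusted p under 0.05 in 5 of the 10 genes, beside 16.2% of all genes tested. These were GABARAPL1 (limma adjusted p = 0.0773), SQSTM1 (adjusted p = 0.247), GABARAPL2 (adjusted p = 0.255), MAP1LC3B (adjusted p = 0.272) and GABARAP (adjusted p = 0.276), the 4 ATG8 family genes and the receptor that binds them. The same 5 had the highest mean FPKM of the 10 genes, so function and expression level cannot be told apart here. None of the 10 had an adjusted p under 0.05 in this test, which was the case for 0.0183% of all genes. The count of 5 became 2 without S34F replicate 1 and 3 without S34F replicate 2, WT replicate 1 or WT replicate 2, and it was 6 without WT replicate 3 and 2 without both libraries numbered 3. In 8 of the 10 genes replicate 3 was the highest library of both groups, beside 21.3% of all genes, the exceptions being MAP1LC3B and ATG7. S34F replicate 3 was the highest of the 6 libraries in 7 of 10, beside 31.4% of all genes, and replicates 1 and 2 of S34F held the lowest value in 3 and 4 genes, beside 14.4% and 16.0% of all genes. The labels do not say what a replicate number stands for, and whether culture, harvest or library preparation went with it was not tested.

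The direction of the S34F and WT difference depended on the number as well. In the libraries numbered 1, S34F was above WT in 3 of 10 genes (50.2% of all genes), and in those numbered 2 it was above in 2 of 10 (47.1%). In those numbered 3, S34F was above WT in 8 of 10 (56.2%), with a log2 difference of 0.63 for MAP1LC3B, 0.60 for SQSTM1, 0.39 for ATG12 and 0.37 for ATG5. Without S34F replicate 3, the fold change of 7 genes turned below 0, at -0.093 for GABARAP, -0.15 for GABARAPL2, -0.11 for MAP1LC3B, -0.40 for SQSTM1, -0.12 for BECN1, -0.15 for ATG5 and -0.060 for ATG12, and none had p under 0.05 there. With the replicate number as a block in limma, 0 of 10 had p under 0.05, beside 4.05% of all genes, and 0% of all genes had an adjusted p under 0.05. The smallest blocked p was 0.416, for SQSTM1, with a 95% interval from -0.28 to 0.57.

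The other genes of the pathway came from a list of 61, of which 58 were in the table and 48 passed the filter. Between S34F and WT, 1 of the 48 was higher and 0 were lower at an unadjusted p under 0.05, a share near the 2.39% of all genes, and no adjusted p was under 0.05. The gene was BNIP3, a mitophagy receptor that is known to respond to hypoxia and to FOXO factors. It was at 7.22, 7.72 and 8.20 FPKM in S34F and at 5.81, 5.81 and 6.78 FPKM in WT replicates 1 to 3. All 3 S34F values were above all 3 WT values, which was so for 1 of the 48 genes, beside 7.38% of all genes without overlap. BNIP3 had a log2 fold change of 0.29 (95% interval 0.031 to 0.55, limma p = 0.033, adjusted p = 1, exact permutation p = 0.1, the smallest possible). The limma p was over 0.05 without S34F replicate 2 (0.0841), WT replicate 1 (0.116) or WT replicate 2 (0.117). With the replicate block 2 of the 48 genes had p under 0.05, a share near the 4.05% of all genes, and no adjusted p was under 0.05. They were BNIP3 and FOXO3, the gene of the transcription factor that the study follows, whose values are given after they were seen. FOXO3 was at 4.68, 4.27 and 8.10 FPKM in S34F and at 2.85, 2.77 and 4.80 FPKM in WT replicates 1 to 3. S34F was the higher in each number, by 0.56, 0.48 and 0.65 on the log2 scale, but the groups overlapped. The log2 fold change of 0.56 was the largest of the 48 (limma p = 0.0676, exact permutation p = 0.3, adjusted p = 1). With the block its 95% interval ran from 0.32 to 0.81 (unadjusted limma p of 0.00218, adjusted p = 0.994). Without the block, its unadjusted p was under 0.05 without S34F replicate 2, without WT replicate 3 and without both libraries numbered 3.

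The most abundant gene of each sublist showed the range of the pathway. ATG101, a subunit of the ULK complex, was at 18.0, 16.5 and 30.1 FPKM in S34F and at 15.7, 15.3 and 20.7 FPKM in WT (log2 fold change 0.27, limma p = 0.301, exact permutation p = 0.5). NRBF2, a class III PI3-kinase regulator, had 10.5, 11.5 and 21.8 FPKM in S34F and 11.1, 9.41 and 11.9 FPKM in WT (0.33, limma p = 0.247, exact permutation p = 0.5). NCOA4, the receptor for ferritin, had 62.5, 62.7 and 109 FPKM in S34F and 67.9, 67.4 and 68.2 FPKM in WT (0.15, limma p = 0.517, exact permutation p = 1). In all 3, as in SQSTM1, S34F replicate 3 was the highest library. WT replicate 3 was also raised over the other WT libraries in SQSTM1 and ATG101, and little or not in NRBF2 and NCOA4. ATG9A, a lipid scramblase of the early membrane, had 23.1, 22.8 and 18.6 FPKM in S34F and 19.2, 17.0 and 20.8 FPKM in WT (0.17, limma p = 0.243, exact permutation p = 0.3). ATG4D, a protease that processes ATG8 proteins, had 20.2, 19.2 and 22.2 FPKM in S34F and 16.4, 17.8 and 21.5 FPKM in WT (0.15, limma p = 0.3, exact permutation p = 0.3). For ATG9A and ATG4D, S34F lay above WT in replicates 1 and 2, and in replicate 3 only for ATG4D. VAMP8, a SNARE of lysosomal fusion, was the most abundant of these at 150 to 162 FPKM in S34F and 155 to 166 FPKM in WT (-0.044, limma p = 0.628, exact permutation p = 0.4), and TFE3, a transcription factor of lysosomal genes, was between 25.2 and 32.5 FPKM in all libraries (-0.065, limma p = 0.645, exact permutation p = 0.5).

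By replicate number, 13 of the 48 pathway genes had an unadjusted p under 0.05 beside 16.2% of all genes, and 0 had an adjusted p under 0.05. Replicate 3 was the highest library of both groups in 27 of 48 and the lowest of both in 3, beside 21.3% and 29.4% of all genes. The 2 smallest p values by number, singled out after they were seen, belonged to cargo receptor genes. TOLLIP was at 4.10, 8.36 and 9.52 FPKM in S34F and at 4.62, 9.66 and 12.9 FPKM in WT (limma adjusted p = 0.204), so it was low in both libraries numbered 1, as MAP1LC3B was. OPTN was at 4.04, 3.52 and 11.8 FPKM in S34F and at 3.78, 3.72 and 8.29 FPKM in WT (limma adjusted p = 0.231), with both libraries numbered 3 above the rest, as for SQSTM1. The sublist of class III PI3-kinase genes had replicate 3 highest in both groups in 5 of 7, the cargo receptors in 6 of 10, and the conjugation and ATG4 genes in 3 of 7.

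**Figure D4:**
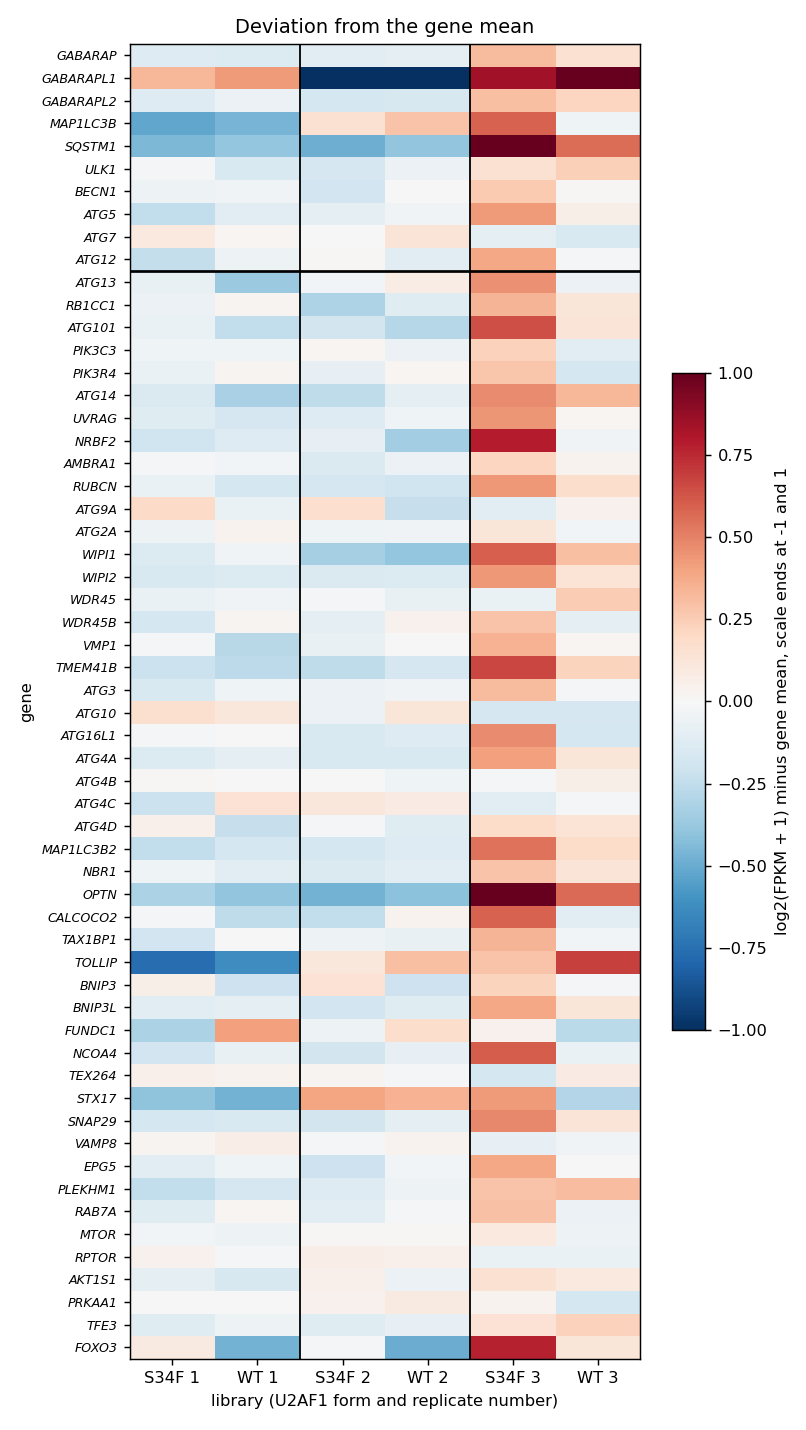
Colours give log2(FPKM + 1) minus the gene's mean over the 6 libraries, red above and blue below, for the 10 genes (above the thick line) and the 48 other pathway genes tested, with libraries in columns paired by replicate number. The S34F replicate 3 column is mostly red, ATG7 is the row among the 10 that is blue in both libraries numbered 3, and GABARAPL1 is blue in both libraries numbered 2. The scale ends at -1 and 1.

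Promoter sequence was available from RefSeq (GRCh38.p14) for all 10 genes, in 13 windows from 250 bases before to 50 after a transcription start, out of 35116 windows in all. The study concerns FOXO3, so the FOXO core GTAAACA was searched on both strands. It was in 0 of the 13 windows and in 3.42% of all. The E-box CACGTG and the longer CLEAR core TCACGTGA, which contains that E-box and is read by TFEB and TFE3, were also in 0 of the 13 windows, beside 7.26% and 0.98% of all. The core of the antioxidant response element, TGACNNNGC, was in 1 window, that of MAP1LC3B, 46 bases before the start, and in 13.3% of all windows. This RefSeq start lies inside the GENCODE span given above for the gene, downstream of where that span begins. The 30 bases around it, at chr16:87392276-87392305 on the plus strand, are shown with the match in capitals because it was the 1 match among the genes.
MAP1LC3B: cgtcgcgagtcaccTGACCAGGCtgcgggc
A match is a string of letters and not evidence of binding, and a window without a match says nothing about the factor.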

How the data were processed

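The deposited table gives each gene an FPKM per library, beside their own fold change, p-value and q-value columns, which were not used. FPKM was kept as deposited. The submitters' processing notes name StringTie and edgeR without versions or roles, and aligner, build and annotation are not given in the sources used here. FPKM carries no counts, so depth was approximated from the value of 1 fragment in single-exon genes, and limits from it cover counting error only. Values per library are per kilobase and can be compared between genes.

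Groups follow the genotype in the labels. The study speaks of independent RNA samples in pairs and of cells handled in triplicate, without naming separate transductions or cultures, so p-values measure only the spread between these samples, which may be technical. No column of per-sample values was left out.

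Log2(FPKM + 1) was fitted with limma 3.58.1 (R 4.3.3) (mean-variance trend) over the 10942 genes whose mean reached 1 FPKM, with Benjamini-Hochberg adjustment over all of them, and fold changes are on that scale, which understates changes of low genes. The script was tested on simulated data with noise independent between libraries. The simulated group difference held no replicate-number pattern, so that test does not cover the pattern seen in these libraries. A second fit took the replicate number as a block. Deviations of same-numbered S34F and WT libraries from their group means correlated at 0.212, 0.174 and 0.380 for numbers 1, 2 and 3, over genes. The study also speaks of pairs of samples. Among the tests, only the fit with the block, which also gave the F test over replicate numbers, treated libraries as paired by number. The main fit with its intervals and the permutation test took the libraries as unpaired. Deviations of S34F replicate 2 and WT replicate 1 also correlated, at 0.197, and those of S34F replicate 1 and WT replicate 2 at 0.134. The members and gene lists were chosen with earlier results of these data known. Named are all 10 members, pathway genes with an unadjusted p under 0.05, the most abundant gene of each pathway sublist, and the 3 genes nearest in profile to the member with the smallest p. Of the 61 listed pathway genes, MAP1LC3C, GABARAPL3 and PRKAA2 were not found by symbol in the deposited table, so they have no values here. Locations, exon overlaps and coding sequences came from GENCODE 29 (GRCh38), matched by gene identifier, and promoters from RefSeq. Alternatives were a pseudocount of 0.1, no filter, a mean of at least 5 FPKM, median-ratio scaling, quantile normalization, no trend, the block and each library left out. The F test over replicate numbers, the fit without both libraries numbered 3, and the counts of genes by replicate number were added after the data were seen. Python 3.11.15, pandas 2.3.3, scipy 1.17.1, Biopython 1.88 and matplotlib 3.10.9 were used.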

Additional observations from a re-analysis of the deposited data

How the results depend on the processing

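In the main fit and in all 14 alternatives, 0 of the 10 members tested had an unadjusted p under 0.05, and the smallest p of a member in any alternative was 0.118. A minimum of 5 FPKM left out BECN1, ULK1, ATG5, ATG7 and ATG12. The pathway count of 1 gene became 2 with the replicate block (BNIP3 and FOXO3), 2 without a filter (BNIP3 higher, ATG16L2 lower), 8 without both libraries numbered 3 (ATG9A, ATG4D, BNIP3 and FOXO3 higher, WDR45B, FUNDC1, NCOA4 and RAB7A lower), and between 0 and 3 with 1 library left out: 0 without WT replicate 1 or WT replicate 2, 2 without S34F replicate 3 and 3 without WT replicate 3. The replicate block changed no other call among the members and the pathway genes. Over all genes, 262 had p under 0.05, beside 443 with the block, 1159 without S34F replicate 3 and 1847 without both libraries numbered 3. The count of 5 members by replicate number was between 2 (without S34F replicate 1) and 6 (without WT replicate 3) with 1 library left out and 2 without both libraries numbered 3. The cause was not tested.

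Directions turned below 0 for GABARAPL2 and ATG7 with quantile normalization (-0.019 and -0.010) and with median-ratio scaling (-0.0093 and -0.0041). Without both libraries numbered 3, log2 fold changes with the opposite sign were -0.0072 for GABARAP, 0.0029 for GABARAPL1, -0.041 for GABARAPL2, -0.093 for MAP1LC3B, -0.081 for SQSTM1, 0.013 for ULK1, -0.11 for BECN1, -0.11 for ATG5, -0.024 for ATG7 and -0.037 for ATG12. With 1 library left out, values ranged from -0.093 to 0.14 for GABARAP, -0.76 to 0.56 for GABARAPL1, -0.15 to 0.11 for GABARAPL2, -0.11 to 0.45 for MAP1LC3B, -0.40 to 0.46 for SQSTM1, -0.10 to 0.092 for ULK1, -0.12 to 0.11 for BECN1, -0.15 to 0.19 for ATG5, -0.072 to 0.071 for ATG7 and -0.060 to 0.25 for ATG12. Of the 60 member values with 1 library left out 21 changed sign, and of the 75 under the other settings 14 did. Among those 75, the block, no filter, the higher minimum and no trend leave the fold change itself as it was. No sign could change under them, so the count of 14 understates how unsteady the directions were. Without both libraries numbered 3, every member changed sign.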
